A study of Homo sapiens with 2 samples.

Results

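Fibroblast growth factors (FGFs) are secreted signals that bind FGF receptors on the cell surface, receptor tyrosine kinases that pair up on binding and pass the signal mainly through the RAS-MAPK cascade. The FGF genes examined here were 6 ligand genes, FGF3, FGF4, FGF8, FGF9, FGF10 and FGF19, and 3 receptor genes, FGFR1, FGFR2 and FGFR3. In the early embryo FGF4 and FGF8 act in mesoderm formation, FGF8 and FGF10 mark the progenitor fields of the heart, and FGF9 promotes growth of the heart muscle. Their positions were taken from given hg19 spans, and a peak belonged to a gene when it met the span widened by 20 kb on each side. Where widened spans met, the nearer gene took the peak. By this rule the 9 genes received 48 of the 46208 peaks of the list, 22 at ligand genes and 26 at receptor genes.

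The peaks came from a chromatin immunoprecipitation (ChIP) with an antibody to the V5 tag. The cells were of the human embryonic stem cell line H1 with a V5 tag on the endogenous TET1 gene, studied as cardiac progenitors on day 7 of monolayer differentiation. TET1 is a dioxygenase that oxidises methylated cytosine, and its CXXC domain binds DNA rich in CpG. The WNT pathway had been activated with 6 µM CHIR99021 up to day 2 and inhibited with 5 µM IWP2 from day 3 to day 5. The groups were 1 TET1-V5 ChIP library and 1 input library of cells of the same kind, and the labels give the genotype of both as wild type, although the series design names the tagged line. The labels list no V5 ChIP of cells without the tag, so antibody signal from other proteins cannot be told apart from TET1. They name no clone, and their extraction text does not describe the precipitation. Each peak carries a score that the authors deposited with it. The score ran from 50 to 3233.06 with 2030 peaks tied at 3100, and scores of 3100 or more are here called the ceiling and are not ranked among themselves. The list had a median score of 172 and a median width of 1531 bp. Read depth was unknown and there were no replicates, so no p-value is given.

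Reference promoter sequences show what kind of DNA lies before these genes. RefSeq promoter windows on GRCh38.p14 were at hand for FGF3, FGF10, FGFR2 and FGFR3 and were matched by gene symbol. The 250 bases before the transcript start are printed 5′ to 3′ for the outermost start of each gene and for 1 inner start of FGFR2, chosen because it held the fewest CpGs. Capitals mark CpG, the dinucleotide that DNA methylation uses and that the CXXC domain binds. The windows lie at chr10:121598445-121598694 and chr10:121593968-121594217 (FGFR2, minus strand), chr4:1793043-1793292 (FGFR3, plus strand), chr11:69819417-69819666 (FGF3, minus strand) and chr5:44389421-44389670 (FGF10, minus strand). These positions are on GRCh38.p14 and are not comparable with the hg19 positions of the peaks.
FGFR2 outermost start: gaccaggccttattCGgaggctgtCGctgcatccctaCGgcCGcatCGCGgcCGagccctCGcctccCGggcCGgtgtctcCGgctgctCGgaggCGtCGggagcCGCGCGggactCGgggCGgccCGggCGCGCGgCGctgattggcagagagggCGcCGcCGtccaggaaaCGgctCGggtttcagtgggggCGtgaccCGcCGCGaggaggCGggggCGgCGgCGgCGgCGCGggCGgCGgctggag
FGFR2 inner start: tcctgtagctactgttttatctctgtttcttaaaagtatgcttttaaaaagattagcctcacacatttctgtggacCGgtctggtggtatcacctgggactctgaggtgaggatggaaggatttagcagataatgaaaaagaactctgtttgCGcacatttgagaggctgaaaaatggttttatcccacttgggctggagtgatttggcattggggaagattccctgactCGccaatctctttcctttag
FGFR3: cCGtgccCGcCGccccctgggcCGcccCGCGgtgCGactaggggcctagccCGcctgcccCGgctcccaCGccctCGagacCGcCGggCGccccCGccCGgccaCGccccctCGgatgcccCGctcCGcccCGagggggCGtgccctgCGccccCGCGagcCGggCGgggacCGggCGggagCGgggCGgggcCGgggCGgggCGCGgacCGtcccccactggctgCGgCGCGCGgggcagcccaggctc
FGF3: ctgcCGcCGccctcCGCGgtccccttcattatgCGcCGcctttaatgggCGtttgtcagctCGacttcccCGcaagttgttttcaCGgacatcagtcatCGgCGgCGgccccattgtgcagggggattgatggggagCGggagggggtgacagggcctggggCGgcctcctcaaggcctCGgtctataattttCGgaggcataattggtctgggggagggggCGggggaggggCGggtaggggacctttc
FGF10: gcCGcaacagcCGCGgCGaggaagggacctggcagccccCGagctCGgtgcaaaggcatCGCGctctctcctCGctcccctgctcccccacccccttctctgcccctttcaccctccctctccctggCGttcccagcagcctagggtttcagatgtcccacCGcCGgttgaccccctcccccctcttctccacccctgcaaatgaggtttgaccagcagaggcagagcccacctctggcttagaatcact

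The FGFR2 window at the outermost start held 42 CpGs, and 98.6% of the 35116 promoter windows of the table held fewer. The other 4 FGFR2 windows, at starts inside the gene, held 6, 7, 3 and 4 CpGs. FGFR2 is transcribed from several starts, and of the 5 windows only the outermost held at least 10 CpGs. FGFR3 had 40 CpGs and a GC content of 86.8%, and 97.8% of windows held fewer CpGs. FGF3 had 19 CpGs and FGF10 had 12, with 65.4% and 51.5% of windows holding fewer. These shares refer to all windows, inner starts included, whose median was 11. The outermost windows of protein-coding genes had a median of 17, and FGF10 lay below it. At the outermost start both receptor windows at hand were thus more CpG-dense than both ligand windows at hand. FGFR1, FGF4, FGF8, FGF9 and FGF19 had no window. In the FGF10 sequence 9 of the 12 CpGs stand in the 125 bases farther from the start.

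**Figure D1:**
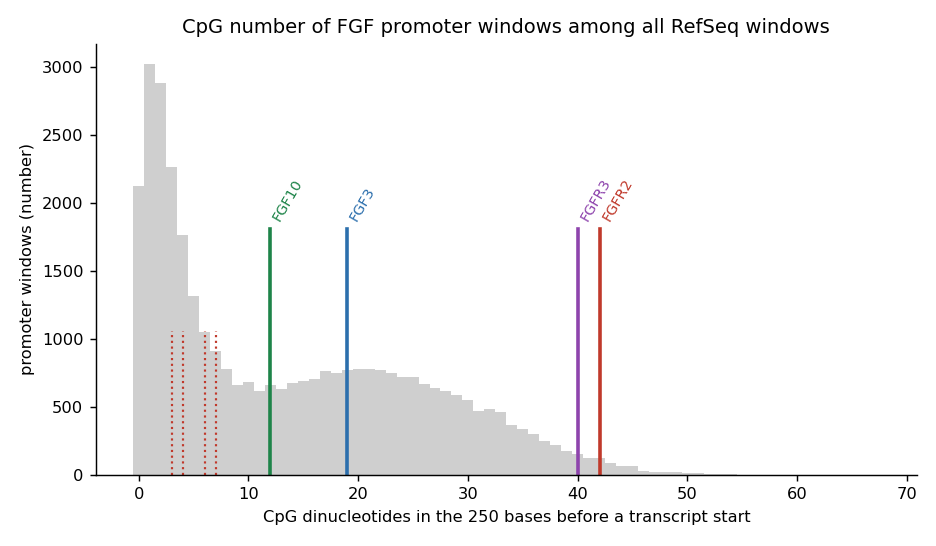
Number of CpG dinucleotides in the 250 bases before a transcript start (x axis) against the number of RefSeq promoter windows with that value (grey bars, 35116 windows in all). Solid lines mark the outermost start of FGF10 (12), FGF3 (19), FGFR3 (40) and FGFR2 (42), and dotted lines the 4 inner FGFR2 starts, which stand between 3 and 7.

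Promoter windows of other FGF pathway genes ranged from 0 to 38 CpGs. Of 34 listed genes, among them ligands, receptors, co-receptors, feedback inhibitors and target factors, 29 had a window. Their median was 16 CpGs, against 17 for the outermost window of each protein-coding gene and 11 for all windows. At least 10 CpGs stood in 19 of the 29 (65.5%), against 68.3% for the outermost windows of protein-coding genes. KL, a co-receptor for endocrine FGFs, had 38 and FGF2 had 33. The receptor genes FGFR4 with 24 and FGFRL1 with 21 stood within the range of these other ligands, from 0 to 35 (FGF22). The Sprouty feedback inhibitors were split, with 23 at SPRY2, 22 at SPRY4, 8 at SPRY1 and 1 at SPRY3. FGF7 had 2 and FGF21, a liver hormone, had 0. These other genes had no given hg19 span and were not joined to peaks.

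TET1-V5 peaks lay at the 5′ end of all 9 FGF genes. A peak counted as at the 5′ end when it came within 1 kb of that end of the span, whose positions are given to the kb. As background, 4.52% of the 2 kb windows tiled over the chromosomes of these genes met a peak. Those windows are not promoters, and how many of all gene starts carry a peak was not analysed here. In each of the 9 genes the peak at the 5′ end was also the highest scoring peak given to the gene. For FGF10, with 1 peak in all, this could not be otherwise, and FGF4 had only 2 peaks. The lowest of the 9 peaks at a 5′ end, at FGF4, scored 339.04, above 64.3% of the list. The 9 peaks were 2502 to 10525 bp wide with a median of 4217 bp. The other 39 peaks had a median width of 1283 bp and a median score of 100, and 20 of them scored below 100. A wide peak comes within 1 kb of a given position more easily, so the definition itself favours wide peaks.

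**Figure D2:**
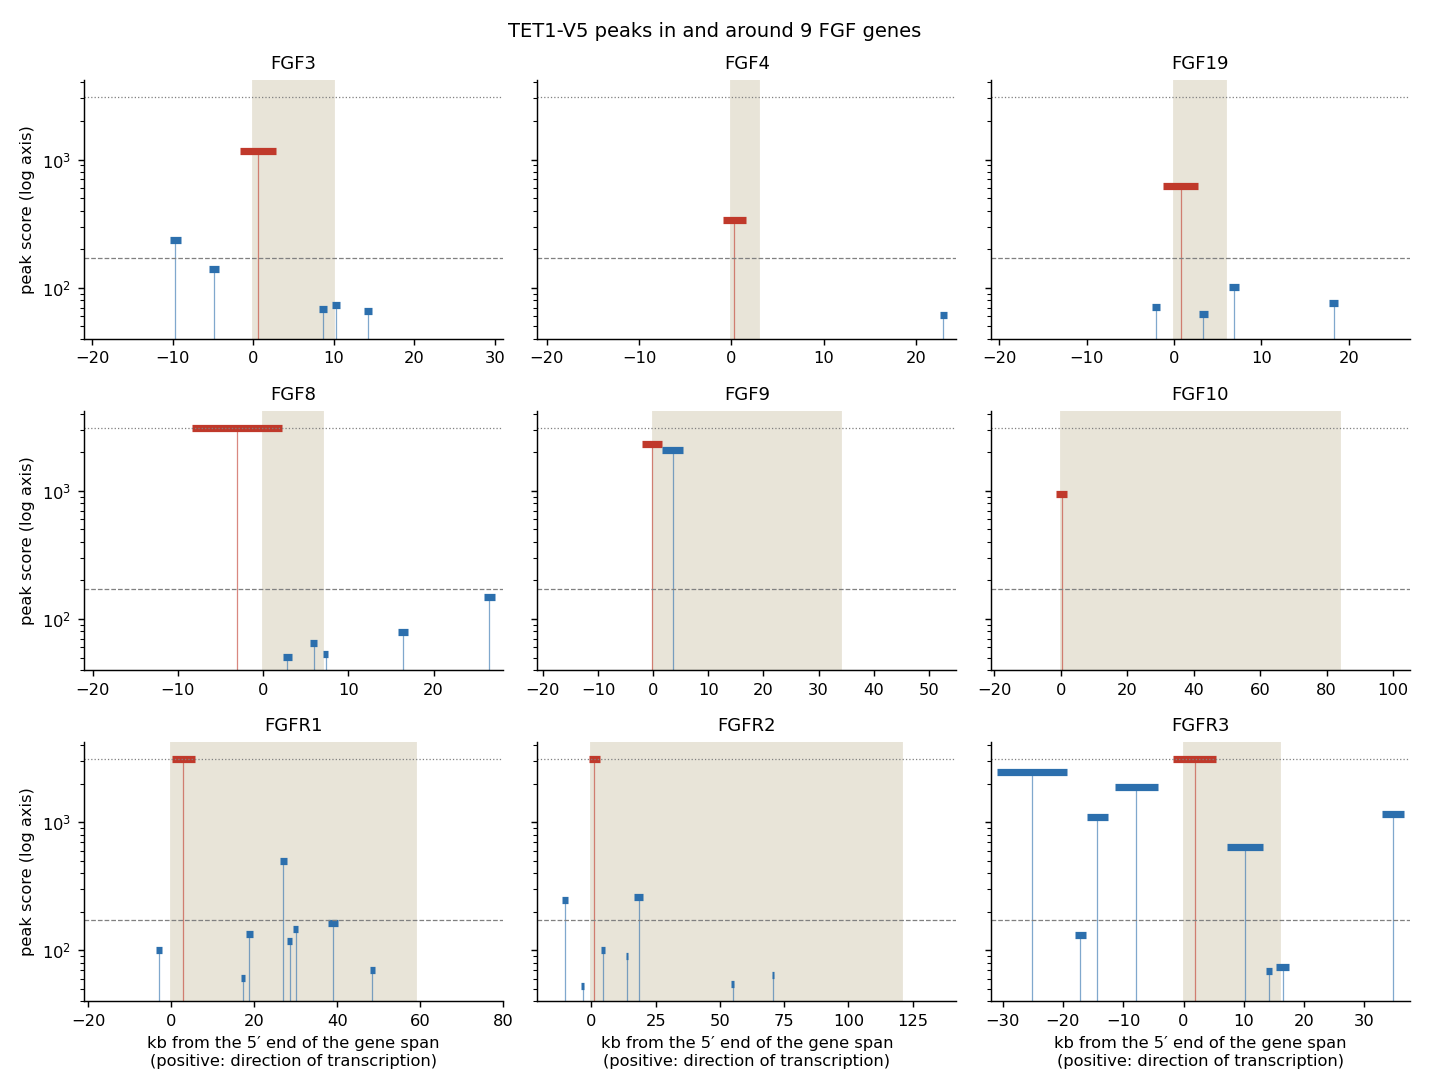
Each panel shows 1 gene, with the distance from the 5′ end of its span in kb on the x axis and the score of each peak on a log y axis. Horizontal strokes are peaks drawn to their width (red, at the 5′ end; blue, elsewhere), the shaded block is the gene span, the dotted line is the ceiling at 3100 and the dashed line the list median of 172. The red stroke is the highest in every panel, and FGF10 has no other peak.

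The 5′ peaks of the 3 receptor genes all stood at the ceiling, whereas of the ligand genes only FGF8 reached it. In all, 4 of the 48 peaks were at the ceiling, 8.33% (95% Wilson interval 3.29% to 19.6%), and each of them was a 5′ peak. The share in the whole list was 4.69%, which lies inside that interval. Scores under 100 made up 41.7% of the 48 peaks (28.8% to 55.7%) and 32.9% of the list. Peaks of 5 kb or more numbered 6, or 12.5% (5.86% to 24.7%), against 3.20% of the list, and 4 of these 6 belonged to FGFR3. Without FGFR3 it was 2 of 39 peaks, 5.13% (1.42% to 16.9%). The intervals cover counting error only and treat neighbouring peaks as independent, which they are not.

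**Figure D3:**
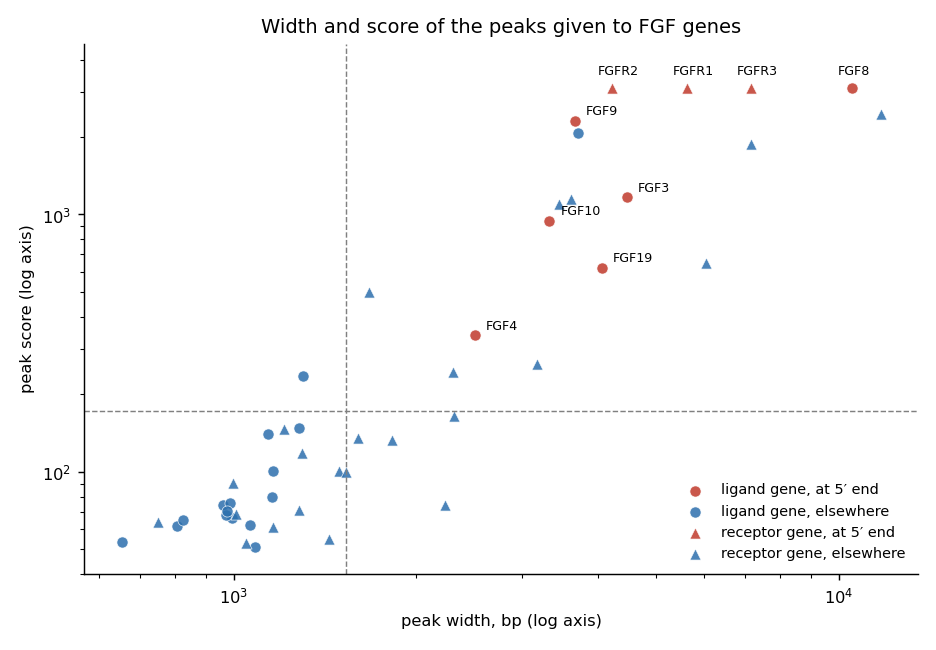
Width in bp (x, log axis) and score (y, log axis) of the 48 peaks given to FGF genes, with circles for ligand genes, triangles for receptor genes and red for peaks at the 5′ end. Dashed lines are the medians of the whole list, 1531 bp and 172, and all 9 red symbols lie above and to the right of both.

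FGFR1, the receptor that the embryo needs at gastrulation, lies on chromosome 8 (38268 to 38327 kb, minus strand). Its 5′ peak ran from 38321318 to 38326930 and was 5613 bp wide, at the ceiling. This peak ended 70 bp short of the end of the span as given and reached 5.68 kb into the gene. It was the only 5′ peak of the 9 that did not cross the end of the span.

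FGFR1 also carried 7 weaker peaks along its gene body. A group of 3 lay 26.2 to 30.6 kb downstream of the 5′ end, from 38296425 to 38300834, with scores of 146.87, 118.05 and 497.64 and gaps of at most 144 bp. A pair at 16.7 to 19.6 kb scored 134.71 and 61.06, and single peaks further on scored 164.72 and 70.8. Only the peak of 497.64 among the 7 scored above the list median. A peak of 100.37 lay 2.11 kb upstream of the gene, and no peak met the 20 kb past the 3′ end. Peaks covered 27.4% of the FGFR1 span. In the RefSeq order LETM2 is the next protein-coding gene on the 3′ side, and the first peak beyond the widened span there stood 2.8 kb past its edge with a score of 957.56. It was not counted for FGFR1.

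FGFR2, the receptor through which FGF10 signals to epithelium, is the longest of the 9 genes (chromosome 10, 123237 to 123358 kb, minus strand). Its 5′ peak, from 123354695 to 123358911, was 4217 bp wide and at the ceiling. The CpG-dense window printed above belongs to this end of the gene, but the builds differ and it was not placed inside the peak. It crossed the end of the span by 0.91 kb and reached 3.31 kb inside. The next peak inward, 357 bp away, was 1531 bp wide with a score of 99.96.

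The FGFR2 gene body had 5 peaks beyond the 5′ one. That at 16.8 to 19.9 kb was the strongest, with a score of 262.74 and a width of 3179 bp. The others scored 99.96, 90.22, 54.67 and 63.61. The last lay 70.2 kb from the 5′ end, and the remaining 70.1 kb of the widened span, 43.5% of it, held no peak. Upstream of the gene were a weak peak of 52.93 and one of 245.14 at 9.29 kb. Peaks covered 9.26% of the FGFR2 span, less than at FGFR1.

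FGFR3, a receptor known for restraining bone growth, was the most densely covered gene (chromosome 4, 1795 to 1811 kb, plus strand). Its 9 peaks covered 58.5% of the widened span and 82.4% of the gene itself. The 5′ peak ran from 1793250 to 1800424, 7175 bp wide and at the ceiling. A second broad peak inside the gene, from 1802171 to 1808216, scored 645.15. The 3′ part of the gene held weaker peaks of 68.81 and 74.11. Past the 3′ end, after 15.4 kb without a peak, a peak from 1827901 to 1831518 was 3618 bp wide with a score of 1148.67.

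Most of the 20 kb before FGFR3 was covered too, 74.7% of it. The peaks there were 7154 bp wide with a score of 1885.32, 3449 bp with 1095.41, 1830 bp with 132.6, and the end of a peak of 11729 bp with 2448.09. The last of these met the widened span by 749 bp only and continued beyond its edge. Joined across gaps of up to 1 kb, it became the end of a 28639 bp stretch of 3 peaks from 1747111 to 1775749. By the RefSeq order TACC3 is the next protein-coding gene on this side and LETM1 on the other. Whether these flanking peaks belong to FGFR3 or to a neighbour cannot be told apart here. Across the 9 genes 12 of the 48 peaks (25%) exceeded 659, the score that marks the upper quartile of the list. In the list that share is 25% by construction. FGFR3 had 5 of these 12 peaks, and without FGFR3 it was 7 of 39, or 17.9%.

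FGF8, a ligand of the heart progenitor field, had the widest 5′ peak of the 9 genes (chromosome 10, 103529 to 103536 kb, minus strand). It ran from 103533784 to 103544308, spanned 10525 bp and stood at the ceiling, and 96.4% of the peaks at the ceiling were narrower. Of its length 8.31 kb lay upstream of the span and 2.22 kb inside. The span of 7 kb is shorter than the RefSeq length of 10.3 kb, so some of the upstream part may lie inside the annotated gene. NPM3, which encodes a nuclear chaperone, is the next protein-coding gene on the upstream side in the RefSeq order. The peak may therefore reach more than 1 gene, and the part each gene holds cannot be told apart here. The other 5 peaks of FGF8 scored 50.8 to 148.42. They lay inside the gene or past its 3′ end, and all were below the list median.

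FGF9, a ligand made by the lining layers of the developing heart, showed a different layout on chromosome 13 (22245 to 22279 kb, plus strand). A pair of strong peaks stood at and just inside its 5′ end with 99 bp between them. The first, from 22242901 to 22246561, scored 2315.4 and was 3661 bp wide. The second, from 22246661 to 22250368, scored 2076.34 and was 3708 bp wide. It began 1.66 kb inside the gene and so was counted as a gene body peak. Joined, they formed 7468 bp of enrichment from 2.1 kb before the start to 5.4 kb inside. The remaining 48.6 kb of the widened span held no peak, and neither did the 5′ flank beyond the first peak. FGF9 was the only ligand gene with more than 1 peak above the upper quartile of the list.

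FGF10, the ligand that drives lung and limb budding and is made in the second heart field, had a single peak in 124 kb (chromosome 5, 44305 to 44389 kb, minus strand). It ran from 44387044 to 44390370, was 3327 bp wide and scored 944.16. It crossed the end of the span by 1.37 kb and reached 1.96 kb inside. The other 97.7% of the span held no peak. Beyond the widened span the nearest peaks were 566.0 kb and 399.7 kb from its edges. In the RefSeq table the long non-coding RNA gene FGF10-AS1 overlaps FGF10, and a peak list has no strand, so the peak cannot be given to either transcript. The widest contrast in gene body coverage was thus between FGF10, 2.33% of 84 kb, and FGFR3, 82.4% of 16 kb.

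FGF19, FGF4 and FGF3 lie side by side on chromosome 11, all on the minus strand. FGF19 is a gut hormone that acts on the liver, FGF4 supports mesoderm and trophoblast growth, and FGF3 acts in inner ear formation. The region from 69493001 to 69654000 that spans the 3 genes held 14 peaks. Of these, 13 fell within a widened span and none was at the ceiling. The 5′ peaks scored 622.13 at FGF19, 339.04 at FGF4 and 1164.6 at FGF3. FGF3 thus had the highest of the 3 and FGF4 the lowest of all 9 genes.

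The FGF3 peak ran from 69631214 to 69635675 and was 4462 bp wide. FGF3 had a further 5 peaks, of which the strongest, 235.09, lay 9.01 kb upstream and the next, 139.68, lay 4.32 kb upstream. Those at the 3′ end and beyond scored 65.81 to 73.93. The FGF19 peak, from 69516216 to 69520283, was 4068 bp wide. Small peaks of 61.94 and 70.3 stood on its sides at gaps of 50 bp and 320 bp, and 2 more lay past the 3′ end with 75.39 and 100.52. The FGF4 peak, from 69588438 to 69590939, was the narrowest of the 9 at 2502 bp, and FGF4 had only 1 more, of 61.35, at the edge of its widened span. Between FGF19 and FGF4 an interval of 39.7 kb, from 69521580 to 69561269, held no peak.

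By count alone, gene body peaks beyond the 5′ one were more numerous at the receptor genes. The 3 receptor genes had 15 gene body peaks other than the 5′ one, 7 at FGFR1, 5 at FGFR2 and 3 at FGFR3. The 6 ligand genes had 6, with none at FGF4 and FGF10, 1 each at FGF9 and FGF19 and 2 each at FGF3 and FGF8. Receptor spans are longer, 196 kb in all against 144 kb, so the same peaks are also given by length. Leaving the 5′ peaks out, that was 0.765 per 10 kb of receptor span and 0.417 per 10 kb of ligand span. FGFR3 had 1.88, FGFR1 1.19 and FGFR2 0.413. Among ligands FGF8 had 2.86, FGF3 2.00, FGF19 1.67, FGF9 0.294, and FGF4 and FGF10 had none. By length the genes of both classes overlapped, and FGF8 and FGF3 stood above all 3 receptors. Both of these rates rest on 2 weak peaks in a short span, scoring 50.8 and 64.91 at FGF8 and 73.93 and 67.86 at FGF3. Peaks scoring below 100 were counted in the receptor gene bodies as well. The counts also include peaks that adjoin a 5′ peak and merge with it when gaps of up to 1 kb are joined. These are the peaks at FGF9 (99 bp away), FGF19 (50 bp away), FGF8 (score 50.8, 81 bp away) and FGFR2 (score 99.96, 357 bp away). Covered length was 20.7% of the receptor spans and 14.4% of the ligand spans, but 15.2% for FGFR1 and FGFR2 without FGFR3. FGF10 alone makes up 84 of the 144 kb of ligand span, and 2.33% of it was covered. The pooled ligand values, by peak number per 10 kb and by covered length, therefore rest largely on FGF10. Without FGF10 both would lie above the pooled receptor values, so the direction of the class difference depends on this gene. The other ligand spans ran from 15.5% (FGF9) to 64.2% (FGF19), and the receptor spans from 9.26% (FGFR2) to 82.4% (FGFR3). Gene by gene the classes overlapped in covered length too. The difference between the classes was not tested, since each rests on a few genes in 1 library.

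**Figure D4:**
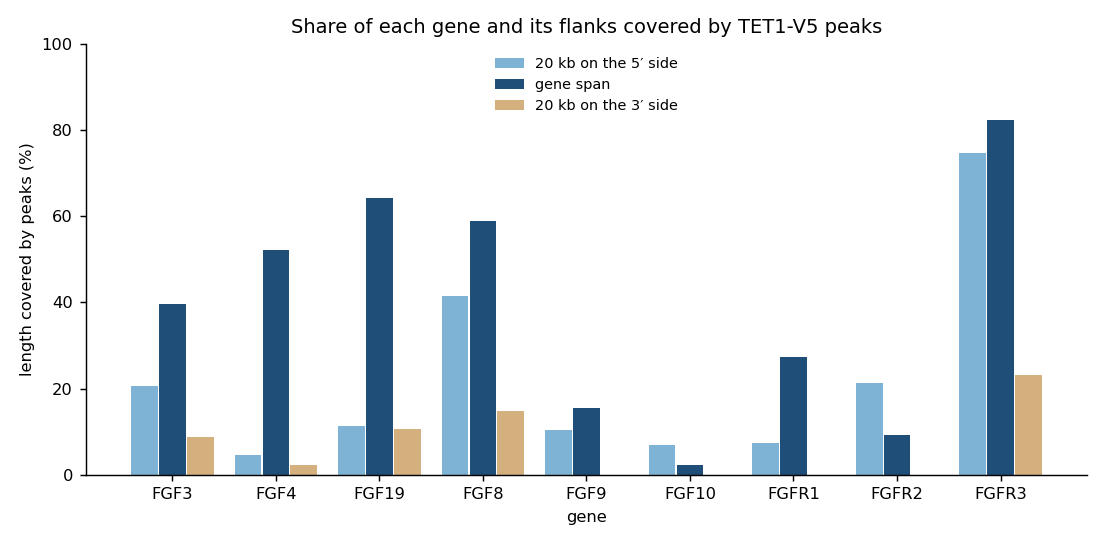
Percentage of length covered by peaks (y axis) in the gene span and in the 20 kb on its 5′ and 3′ sides for each of the 9 genes (x axis). FGFR3 has the highest bars in its span (82.4%) and 5′ flank (74.7%), FGF10 has the lowest span bar (2.33%), and a missing bar is 0.

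Peak numbers can be read against windows of the same length tiled over each gene's chromosome, counting every peak a window touches. At least 9 peaks stood in 0.587% of such windows for FGFR3 and in 2.17% for FGFR1. For FGF8, at least 6 peaks stood in 1.98% of windows. The shares were 3.90% for FGF3, 5.36% for FGF19 and 8.10% for FGFR2. FGF9 (13.9%) and FGF4 (18.9%), had 2 peaks each, a number that more windows reached, and 49.9% of windows on chromosome 5 matched the 1 peak of FGF10. Order by number and order by the score of the 5′ peak thus differed: FGF9 ranked low by number although its 5′ score of 2315.4 was the highest below the ceiling. The windows include stretches without genes or mappable sequence, and the shares are descriptions of this list.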

How the data were processed

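The submitters' processing notes name BWA 0.7.17 as a tool and hg19 as the build. Peaks of the ChIP library against input carry MACS names in the deposited file. The MACS release used is not given in the sources used here. For each peak the score is the value the authors deposited, its unit is not stated, and it was used only within this list. Positions are counted from 1.

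Peaks were given to genes with Python 3.11.15 and pandas 2.3.3, with an overlap of at least 1 bp, and the assignment was tested on simulated peaks. The 5′ end is the start or end of the span by strand, which is general knowledge and matched RefSeq for the 4 genes with a promoter window. RefSeq lengths on GRCh38.p14 were longer than the spans of FGF4 (4.3 against 3 kb), FGF8 (10.3 against 7 kb) and FGF10 (89.2 against 84 kb), so annotated starts can lie elsewhere. That table gave only names, gene order and lengths. CpG was counted in 250 bases, and CG reads the same on both strands. All 9 genes are named, and the members and lists were chosen with earlier results of these data known. Alternatives were score thresholds, other widths, peak midpoints and merging up to 1 kb.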

Additional observations from a re-analysis of the deposited data

How the results depend on the processing

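All 5 summary results (peaks given to the genes, genes with a peak, covered length, peaks at the ceiling, genes with a 5′ peak) were recomputed, giving 35 alternative values, of which 28 stayed within 1.5 times the value reported. All 9 genes had a peak in every alternative run. The 48 peaks became 28 at scores of 100 or more, 19 in the upper 50% of the list by score and 30 without widening. The covered length of 113.0 kb became 61.3 kb without widening and 172.3 kb with 50 kb, where 7 peaks were at the ceiling instead of 4. A peak midpoint within 1 kb of the 5′ end was found for 5 genes, and a peak over the exact position given for 8, FGFR1 being the exception. Spans are given to the kb, which limits these distances. No depth, replicate or hg19 gene annotation stands behind the values. No paired analysis was possible because neither group holds more than 1 library.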
